A study of Homo sapiens with 8 samples.

Results

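FKBP5 and the chaperones that hold the glucocorticoid receptor were followed in CCRF-CEM-C7-14 cells over a short course of dexamethasone. The members were taken by name: every probe set whose only platform gene symbol was FKBP5, FKBP4, HSP90AA1, HSP90AB1, PTGES3, STIP1, HSPA8, PPID, PPP5C or BAG1. This gave 25 probe sets of 9 genes, among 54613 probe sets fitted and 19775 genes with a symbol of their own. HSPA8, the constitutive cytosolic Hsp70, had 4 probe sets, each of which also carried the symbols of small nucleolar RNAs from its introns, so it was not analysed here. The rule reads gene symbols and no measured value, although the genes were listed with earlier results of these data known.

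CCRF-CEM-C7-14 is a clone of the CCRF-CEM line, human T-cell acute lymphoblastic leukaemia cells, that responds to glucocorticoids, so all values come from 1 genetic background. Total RNA was measured on 8 single-colour arrays: 3 of untreated cells at 0 h, 3 of cells given 1 µM dexamethasone, a synthetic glucocorticoid, for 2 h, and 2 of cells given the same dose for 10 h. Before hormone was added, cells were placed in medium whose serum had been stripped of steroids with charcoal. Vehicle-treated cells at 2 h and 10 h were not analysed here, and effects of the hormone and of time in that medium cannot be told apart. The labels call the arrays within a time biological replicates without naming separate cultures, so the p-values cover only the spread among these samples, which may be technical.

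The unliganded glucocorticoid receptor is known to sit in the cytoplasm in a complex built by Hsp70 and Hsp90. Hsp70 passes the receptor to Hsp90 with the help of the scaffold protein STIP1, the co-chaperone p23 stabilises the mature complex, and an immunophilin or phosphatase with a tetratricopeptide repeat docks on Hsp90. FKBP5 in that position lowers hormone affinity and nuclear transfer, whereas FKBP4 links the complex to dynein and favours both. FKBP5 is also a widely used glucocorticoid target gene, through receptor binding sites that lie mostly in its introns, and its product thereby feeds back on the receptor.

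Sequence just before the annotated starts is shown for FKBP5, whose probe sets rose, at both of its starts. For the cytosolic Hsp90 genes, whose probe sets were not called, the 1 start of each that holds a heat shock element is shown, so these were picked for the match. Each stretch is the 250 bases before a RefSeq start on GRCh38.p14, written 5′ to 3′ on the gene's strand. Of the 10 listed genes, 8 were in the RefSeq promoter table, with 13 starts. FKBP4 and PPP5C had no entry. Capitals mark the fixed letters of a heat shock element, the motif that heat shock factors bind, searched on both strands as TTC, GAA and TTC with 2 bases of any kind between them, or GAA, TTC and GAA spaced alike.
FKBP5, chr6:35728584-35728833, minus strand: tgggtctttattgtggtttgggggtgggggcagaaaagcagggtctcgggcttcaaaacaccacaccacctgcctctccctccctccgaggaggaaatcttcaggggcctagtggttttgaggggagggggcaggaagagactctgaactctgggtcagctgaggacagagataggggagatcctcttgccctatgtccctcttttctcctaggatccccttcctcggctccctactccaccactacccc
FKBP5, chr6:35688916-35689165, minus strand: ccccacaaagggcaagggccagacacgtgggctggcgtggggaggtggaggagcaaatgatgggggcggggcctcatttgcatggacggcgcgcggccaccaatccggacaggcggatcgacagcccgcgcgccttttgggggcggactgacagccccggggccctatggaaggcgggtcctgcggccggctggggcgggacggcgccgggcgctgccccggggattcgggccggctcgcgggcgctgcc
HSP90AA1, chr14:102087045-102087294, minus strand: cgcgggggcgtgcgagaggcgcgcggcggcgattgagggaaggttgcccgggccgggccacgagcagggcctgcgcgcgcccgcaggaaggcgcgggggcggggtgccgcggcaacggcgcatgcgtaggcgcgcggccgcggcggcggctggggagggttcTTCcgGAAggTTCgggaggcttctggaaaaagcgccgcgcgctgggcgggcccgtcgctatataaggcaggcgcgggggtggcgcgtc
HSP90AB1, chr6:44247693-44247942, plus strand: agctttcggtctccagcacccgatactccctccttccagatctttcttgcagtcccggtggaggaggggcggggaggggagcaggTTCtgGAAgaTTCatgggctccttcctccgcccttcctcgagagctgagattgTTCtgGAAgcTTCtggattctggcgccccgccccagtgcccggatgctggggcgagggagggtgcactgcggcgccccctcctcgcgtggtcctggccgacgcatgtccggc

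The heat shock element was found 1 time before the HSP90AA1 start shown and 2 times before the HSP90AB1 start shown. The other HSP90AA1 start and the other 2 HSP90AB1 starts had none. HSPA8 had 2 matches at its 1 start, and the FKBP5, STIP1, PTGES3, PPID and BAG1 windows had none. The element was in 0.441% of 35116 windows of the same length. The palindromic receptor motif, AGAACA and TGTTCT with 3 bases of any kind between them, was in none of the 13 windows and in 0.00285% of all windows. Its hexamer alone, AGAACA or TGTTCT, was in 12.4% of all windows, in neither FKBP5 window and, among the 13, only in the HSP90AB1 window shown, where 1 match overlaps a heat shock element. These are matches of letters in short windows and say nothing of binding elsewhere in a gene.

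Values are log2 expression made by RMA, so a difference of 1 is a doubling, and a value on 1 probe set is not comparable with a value on another. Array medians lay between 4.68 and 5.01. The 3 arrays with the lowest medians were 0 h replicate 2, 2 h replicate 3 and 10 h replicate 1, a set that holds 1 array of each time. Results by this set are given for FKBP5 and some others. On several uncalled probe sets the sign of the change differed between this set and the other 5 arrays. The highest of 27 bacterial control probe sets, taken here as negative controls, reached 4.73, and 23 of the 25 chaperone probe sets had a mean above that. Among 11 T-lineage markers 10 lay above it, with CD2 just under at 4.72. Above it too were 3 of 4 measured B-cell markers, 1 of 4 myeloid, 2 of 4 natural killer, 1 of 2 erythroid and 5 of 6 epithelial and stromal markers. The summed levels of every list overlapped between the times, for example 102.2 to 102.3 at 10 h against 99.7 to 102.8 at 0 h for the T lineage.

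FKBP5 rose strongly by 10 h on all 3 of its probe sets, and no probe set of another measured chaperone passed the test at either time. Probe set 224840_at read 10.38, 10.00 and 10.77 at 0 h, 11.09, 11.15 and 11.07 at 2 h, and 12.50 and 12.57 at 10 h. The 3 times formed separate, ordered bands with no array out of place. How many of all probe sets show 3 such bands was not computed. At 10 h the mean was 12.54 ± 0.05 (SD, n = 2) against 10.38 ± 0.38 (SD, n = 3) at 0 h. The log2 fold change was 2.16 ± 0.22 (SE), a 4.46-fold rise with a 95% interval of 3.22 to 6.17 (limma, adjusted p = 0.000185). In RNA from a whole culture, a rise in every cell and a larger share of cells with the transcript, like fewer cells of a type and less RNA per cell, cannot be told apart.

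The other FKBP5 probe sets gave the same order. Probe set 224856_at read 9.18, 8.51 and 9.09 at 0 h, 10.00, 9.64 and 9.98 at 2 h, and 11.30 and 11.52 at 10 h. Its 10 h rise was 2.48 ± 0.23 (SE), or 5.58-fold with an interval of 3.98 to 7.83 (adjusted p = 6.48e-05). Probe set 204560_at, the dimmest at 0 h, read 6.89, 6.59 and 7.01 at 0 h, 8.19, 7.47 and 7.79 at 2 h, and 9.26 and 9.98 at 10 h. Its rise was the largest of the 3 estimates, at 2.79 ± 0.26 (SE), or 6.93-fold (4.74 to 10.1), with the same adjusted p. The 3 intervals overlap, and the probe sets were read on the same arrays, so they are not independent measurements of the hormone effect.

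**Figure D1:**
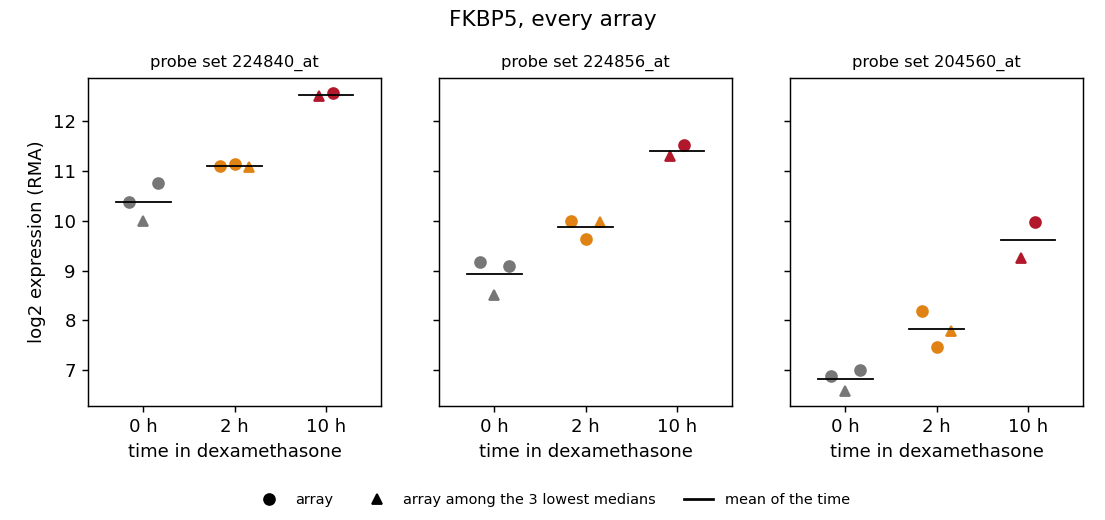
Log2 expression of FKBP5 on each of 8 arrays (points) at 0, 2 and 10 h of dexamethasone, 1 panel per probe set, with the mean of each time as a line and triangles for the 3 arrays with the lowest medians. On every probe set the 10 h arrays lie above the 2 h arrays and those above the 0 h arrays, with the lowest 10 h value of 204560_at at 9.26.

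At 10 h against 0 h, 3 of the 25 chaperone probe sets were called as higher, where 0.245% of all 54613 probe sets were, and none as lower, where 0.00549% were. All 3 are FKBP5. On all 3 the 10 h arrays also lay above all 0 h arrays, as they did for 5.92% of all probe sets. The calls held under each of the 17 to 19 alternative settings that gave a value. Leaving out 1 array at a time put the log2 fold change of 224840_at between 1.96 and 2.35. Among the 3 low-median arrays alone the 10 h difference came to 2.51 on 224840_at, 2.79 on 224856_at and 2.67 on 204560_at. Among the other 5 it came to 2.00, 2.38 and 3.03 on these probe sets.

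At 2 h, the first time sampled, none of the 25 probe sets passed in the limma test, where 0.00916% of all probe sets did. With no adjustment for multiple tests, the 3 FKBP5 probe sets had a higher value at p below 0.05, as did 0.679% of all, and no chaperone probe set had a lower one, as did 0.417% of all. FKBP5 had log2 fold changes of 0.72 ± 0.20 on 224840_at, 0.94 ± 0.20 on 224856_at and 0.99 ± 0.23 (SE) on 204560_at. The unadjusted p-values were 0.00227, 0.000337 and 0.000597, and each adjusted p was 1.00. On each probe set the 3 arrays at 2 h lay above the 3 at 0 h, an arrangement found for 2.77% of all probe sets. These log2 differences came to 33.6%, 38.0% and 35.6% of the 10 h differences. Over the alternative settings the lowest adjusted p reached on any of the 3 was 0.0803. On 224840_at the 2 h difference was 1.08 among the 3 low-median arrays and 0.55 among the other 5.

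FKBP5 was also higher at 10 h than at 2 h on all 3 probe sets. On each, the 10 h arrays lay above all 2 h arrays, as they did for 5% of all probe sets. The log2 fold change of 10 h against 2 h was 1.43 ± 0.22 on 224840_at (adjusted p = 0.0139), 1.54 ± 0.23 on 224856_at (adjusted p = 0.0108) and 1.80 ± 0.26 (SE) on 204560_at (adjusted p = 0.00788). These 3 of the 25 chaperone probe sets were called as higher, where 0.106% of all were, and none was called as lower, where 0.00183% were (0.108% in either direction). These calls were less stable than those against 0 h. No FKBP5 probe set was called without 10 h replicate 2 or without the 3 arrays with the lowest medians, and 1 was called without 10 h replicate 1 or without 2 h replicate 2. The 10 h arrays are shared with the comparison against 0 h.

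**Figure D2:**
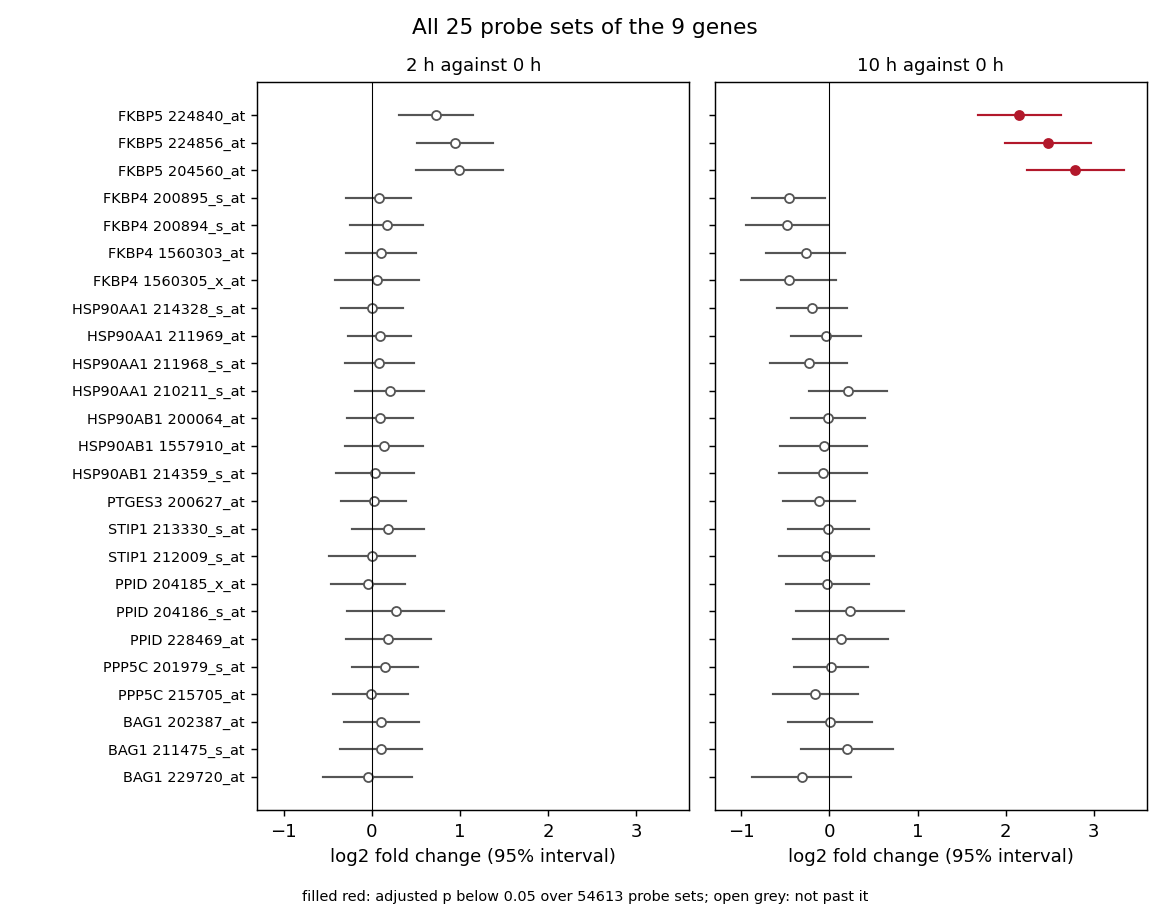
Log2 fold change (point) with its 95% interval (line) for all 25 probe sets, at 2 h against 0 h on the left and 10 h against 0 h on the right. Filled red points mark an adjusted p below 0.05 over all probe sets, which are the 3 FKBP5 probe sets at 10 h, at 2.16, 2.48 and 2.79.

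FKBP4 is the close paralogue of FKBP5 that competes for the same docking site on Hsp90. Its brightest probe set, 200895_s_at, read 9.60, 9.34 and 9.51 at 0 h, 9.55, 9.74 and 9.39 at 2 h, and 8.95 and 9.09 at 10 h. Both 10 h arrays lay below all 6 others, an order whose share over all probe sets was not computed. The mean was 9.02 ± 0.09 (SD, n = 2) at 10 h against 9.48 ± 0.13 (SD, n = 3) at 0 h, a log2 fold change of −0.46 with an interval of −0.87 to −0.05. That did not pass over all probe sets (unadjusted p = 0.0318, adjusted p = 1.00).

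The second bright FKBP4 probe set, 200894_s_at, gave a like pattern. It read 9.10, 8.84 and 8.63 at 0 h, 9.03, 9.24 and 8.80 at 2 h, and 8.17 and 8.58 at 10 h. Again both 10 h arrays lay below the rest, with a log2 fold change of −0.48 (−0.95 to −0.01) and an unadjusted p of 0.0439. Of all probe sets, 0.921% were lower at 10 h than at 0 h at an unadjusted p below 0.05. The 10 h arrays lay wholly below the 0 h arrays on 6.19% of all, and wholly below the 2 h arrays on 8.35%. The other FKBP4 probe sets, 1560303_at and 1560305_x_at, had means of 4.41 and 4.29, within the range of the negative controls, and log2 fold changes of −0.27 and −0.46. At 2 h the 4 values ran from 0.06 to 0.17. The values for 10 h against 2 h ran from −0.65 to −0.37, none of them called. On 200895_s_at and 200894_s_at these had an unadjusted p below 0.05, the only chaperone probe sets to be lower by that measure, beside 1.42% of all probe sets, while the 3 of FKBP5 were higher, beside 1.11%. Over the alternative settings the lowest adjusted p of any FKBP4 probe set at 10 h against 0 h was 0.398, and each kept a negative sign.

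PPID, also called cyclophilin 40, is another immunophilin that docks on Hsp90. Its brightest probe set, 204185_x_at, read 9.58, 9.16 and 9.37 at 0 h, 9.54, 9.41 and 9.05 at 2 h, and 9.15 and 9.55 at 10 h. The times overlapped throughout, with a 10 h log2 fold change of −0.02 and an interval of −0.50 to 0.45. The PPID probe sets 204186_s_at and 228469_at had 0.23 and 0.13. On 204186_s_at a low array at 0 h, replicate 3 at 7.81 beside 9.04 and 8.83, widened the interval to −0.38 to 0.85.

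PPP5C is a serine/threonine phosphatase that binds Hsp90 through the same kind of repeat. Probe set 201979_s_at read 7.51, 7.53 and 7.19 at 0 h, 7.64, 7.61 and 7.44 at 2 h, and 7.32 and 7.54 at 10 h. No time stood apart, and the 10 h log2 fold change was 0.02 (−0.40 to 0.44). The second probe set, 215705_at, had −0.16 (−0.64 to 0.32), with both 10 h arrays just below the 0 h arrays.

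HSP90AA1 and HSP90AB1 encode the inducible and the constitutive cytosolic Hsp90, which hold the receptor ready to bind hormone. HSP90AA1 on 214328_s_at read 13.39, 13.26 and 13.14 at 0 h, 13.29, 13.28 and 13.23 at 2 h, and 13.06 and 13.06 at 10 h. The 10 h arrays were the lowest of the 8, by a small margin, again an order whose share over all probe sets was not computed. The log2 fold change was −0.20 (−0.59 to 0.20), and the other 3 HSP90AA1 probe sets had −0.04, −0.24 and 0.21. The highest value of any probe set on any array was 13.9, so HSP90AA1 was read near the top of the scale.

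HSP90AB1 on 200064_at read 12.66, 12.48 and 12.44 at 0 h, 12.75, 12.69 and 12.42 at 2 h, and 12.41 and 12.61 at 10 h. These values overlapped, with a 10 h log2 fold change of −0.02 (−0.44 to 0.40). The other HSP90AB1 probe sets, 1557910_at and 214359_s_at, had −0.06 and −0.08. Among the 3 low-median arrays these 10 h differences were −0.44 and −0.27, and among the other 5 arrays 0.24 and 0.14. The difference in change between HSP90AA1 and HSP90AB1 was −0.18 at 10 h. An exact permutation test over the 3 times together did not separate them (p = 0.318), and the 10 h difference alone was not tested. Probe sets whose names end in _s_at or _x_at may bind several transcripts, and both Hsp90 genes have near-identical processed pseudogenes, so their values may be mixed.

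PTGES3 encodes p23, which binds Hsp90 in its closed, mature state. Its probe set 200627_at read 12.73, 12.42 and 12.59 at 0 h, 12.69, 12.61 and 12.49 at 2 h, and 12.35 and 12.57 at 10 h. The times overlapped, and the 10 h log2 fold change was −0.12 (−0.53 to 0.29).

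STIP1 and BAG1 act where Hsp70 hands on the receptor, STIP1 as the bridge to Hsp90 and BAG1 as a nucleotide exchange factor that releases clients from Hsp70. STIP1 on 213330_s_at read 10.13, 10.02 and 9.69 at 0 h, 10.12, 10.21 and 10.06 at 2 h, and 9.68 and 10.20 at 10 h. The 10 h arrays spanned the range of the others, and the log2 fold change was −0.01 (−0.47 to 0.44). The second STIP1 probe set, 212009_s_at, had −0.03. Among the 3 low-median arrays the 10 h differences of these probe sets were −0.35 and −0.40, and among the other 5 arrays 0.28 and 0.21. BAG1 on 202387_at read 9.23, 8.72 and 8.999 at 0 h, 9.07, 9.33 and 8.86 at 2 h, and 8.79 and 9.20 at 10 h. It showed no separation of the times either, at 0.01 (−0.47 to 0.49). The other BAG1 probe sets pointed opposite ways without a call, at 0.20 and −0.31.

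**Figure D3:**
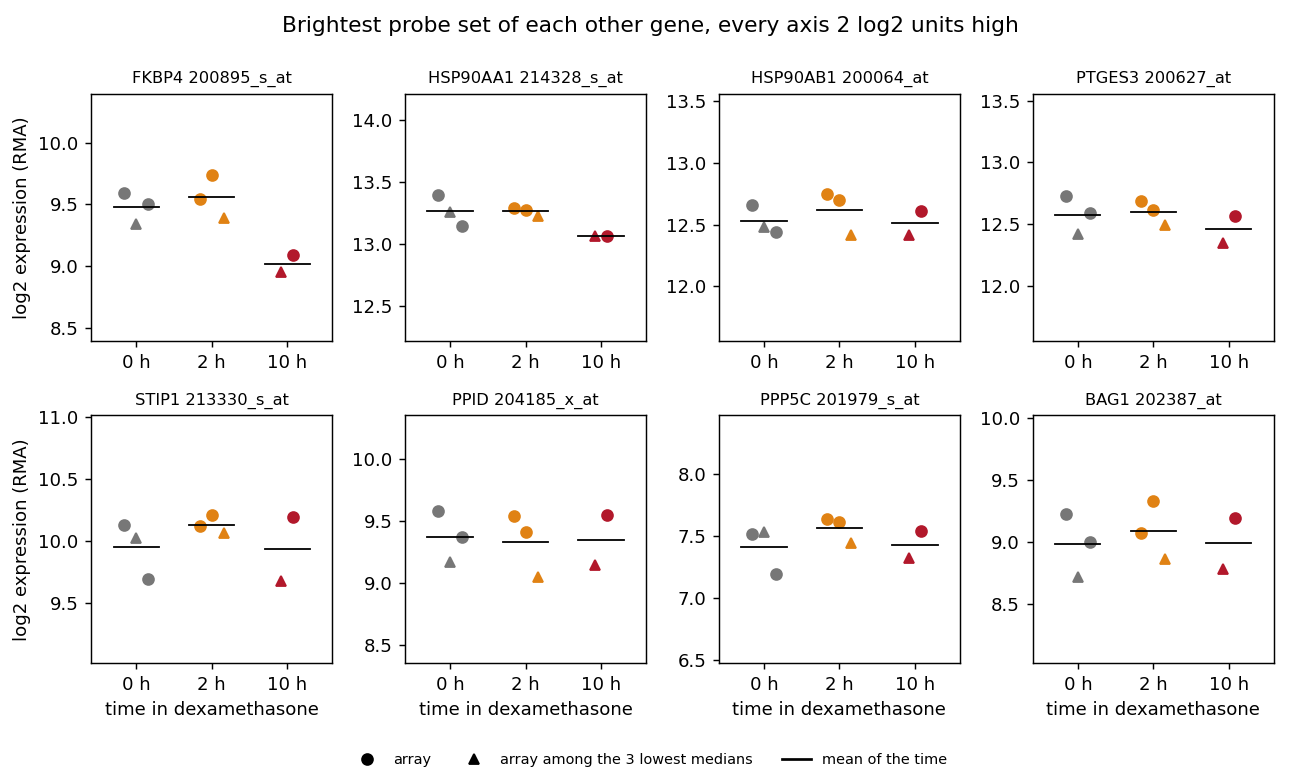
Log2 expression on each array (points) at 0, 2 and 10 h for the brightest probe set of each of the other 8 genes, with the mean of each time as a line and triangles for the 3 arrays with the lowest medians. Every axis spans 2 log2 units, and the 10 h arrays lie below all others for FKBP4 (8.95 and 9.09) and HSP90AA1 (13.06 and 13.06).

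The log2 fold changes of the 22 probe sets outside FKBP5 at 10 h against 0 h ran from −0.48 to 0.23 with a median of −0.05, beside −0.03 over all probe sets. Of the 22, 16 were negative, or 72.7%, beside 56.3% of all. On 5 of them, 3 of FKBP4 and 1 each of HSP90AA1 and PPP5C, both 10 h arrays lay below the 3 at 0 h, which was so for 6.19% of all probe sets. At 2 h against 0 h the same 22 ran from −0.05 to 0.27 with a median of 0.09, beside 0.01 over all. Of these, 4 were negative, beside 46.7% of all, and on none did the 2 h arrays lie wholly below the 0 h arrays, beside 1.37% of all. Set against 2 h, the 10 h values ran from −0.65 to 0.09 with a median of −0.13, beside −0.03 over all, and 19 were negative (86.4%, beside 56.6% of all). The 10 h arrays lay wholly below the 2 h arrays on 5, 3 of FKBP4 and 2 of HSP90AA1, beside 8.35% of all. Both of these comparisons use the same 2 h arrays. Of the 22, 20 had a mean above the negative controls. Over the 28622 probe sets with such a mean, the median was 0.04 at 2 h against 0 h and −0.04 at 10 h against 2 h.

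A call on FKBP5 and none on its partners does not show that their changes differ, so the difference was tested within arrays. For each partner, the FKBP5 value minus the partner's value was taken on every array from their brightest probe sets. FKBP5 minus FKBP4 was 0.79, 0.65 and 1.26 at 0 h, 1.55, 1.41 and 1.68 at 2 h, and 3.55 and 3.48 at 10 h. The 3 times did not overlap. Relative to 0 h, FKBP5 gained 2.62 log2 units on FKBP4 by 10 h and 0.65 by 2 h. An exact permutation test of the F statistic over all 560 assignments of arrays to times gave p = 0.00357, the smallest these group sizes allow (adjusted p = 0.00476 over 8 partners).

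The same held against the other partners. The 10 h gains of FKBP5 were 2.35 on HSP90AA1, 2.17 on HSP90AB1, 2.27 on PTGES3, 2.18 on PPID and 2.15 on BAG1. The exact test over the times gave each of these pairs an adjusted p of 0.00476. The gains were 2.14 on PPP5C and 2.17 on STIP1, with an adjusted p of 0.0122 and 0.0143 in that test. For both, 0 h replicate 3 fell among or above the 2 h arrays. All 8 pairs passed, and leaving out either 10 h array ended the call against STIP1, at an adjusted p of up to 0.0571. These tests share the FKBP5 values and are not independent of each other.

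**Figure D4:**
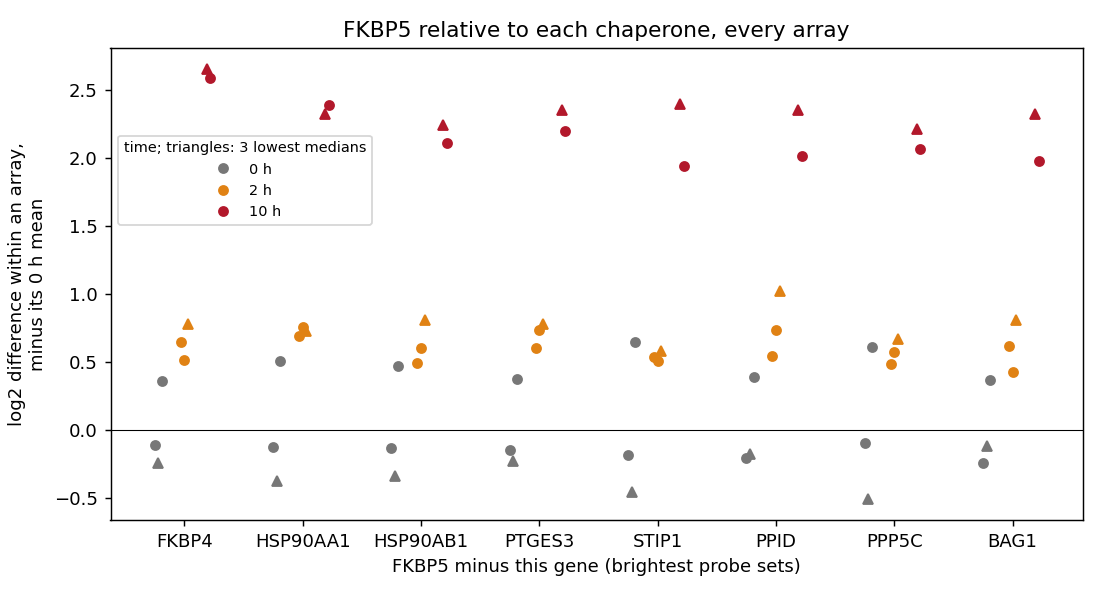
FKBP5 minus each partner within every array, in log2 units after subtracting the mean of the 0 h arrays of that pair, for the brightest probe sets, with grey, orange and red points for 0, 2 and 10 h and triangles for the 3 arrays with the lowest medians. At 10 h the means lie between 2.14 (PPP5C) and 2.62 (FKBP4), above every 0 h and 2 h array.

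Other genes of the chaperone system were looked at as lists. Of 57 listed genes of the remaining Hsp90 and Hsp70 machinery, 52 were on the array with 121 probe sets. Limma called none of these in any of the 3 comparisons. Among all probe sets it called 0.00916% at 2 h against 0 h, 0.251% at 10 h against 0 h and 0.108% at 10 h against 2 h. By 10 h, 7 had a positive and 2 a negative change at an unadjusted p below 0.05, beside 1.75% and 0.921% of all probe sets. Their median log2 fold change was −0.06. Of the 121, 33.1% were negative at 2 h against 0 h and 72.7% at 10 h against 2 h, beside 46.7% and 56.6% of all probe sets. The smallest adjusted p was that of CDC37L1, a relative of the kinase-specific Hsp90 co-chaperone, with 219343_at at a mean of 6.54 at 10 h against 5.72 at 0 h (0.83 ± 0.25, SE; adjusted p = 0.732). DNAJB4, an Hsp40, came next at 0.72 ± 0.25 (SE; adjusted p = 1.00).

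Of 33 further immunophilins, 31 were on the array with 83 probe sets. None of these was called by limma in any comparison, beside the shares of all probe sets given for the first list. By 10 h, 3 had a positive and none a negative change at an unadjusted p below 0.05, beside 1.75% and 0.921% of all probe sets. The median log2 fold change of the 83 was −0.04, beside −0.03 over all. At 2 h against 0 h 31.3% of the 83 were negative, and at 10 h against 2 h 60.2%. PPWD1, a spliceosomal cyclophilin, had the lowest unadjusted p, with 236999_at at a mean of 3.68 at 10 h against 3.09 at 0 h, within the negative controls (0.59 ± 0.23, SE; adjusted p = 1.00). FKBP1A, the small cytosolic FKBP12, had 0.58 ± 0.23 (SE) on 214119_s_at at the same adjusted p.

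NR3C1, the receptor these chaperones hold, read 11.24, 10.72 and 10.92 at 0 h, 12.27, 12.12 and 11.55 at 2 h, and 12.36 and 12.53 at 10 h on its brightest probe set 201865_x_at. Its 10 h rise of 1.49 ± 0.24 (SE) was called over all probe sets (limma, adjusted p = 0.00976), and the 2 h value of 1.03 ± 0.21 was not (adjusted p = 0.795). Its correlation with FKBP5 over the 8 arrays was 0.85 (Pearson).

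Genes with the array profile most like FKBP5 were sought among 23675 probe sets of other genes above the negative controls. By Pearson correlation with 224840_at over the 8 arrays these were HEMGN (0.99), UBASH3B (0.99), CRISPLD1 (0.99), STK16 (0.98) and PLXND1 (0.98). The 8 points share 3 times and the same arrays, and 124 probe sets exceeded 0.9, so the coefficients only describe a common profile over these arrays. At 0 h these genes also ordered the arrays as FKBP5 did, with replicate 2 lowest and replicate 3 highest, which is the order of the array medians (4.68, 4.91 and 5.01). They were chosen for this profile, so their levels are given as a description with no test. UBASH3B, a phosphatase of lymphoid signalling, averaged 9.26 at 10 h against 7.47 at 0 h. STK16, a membrane-bound kinase, averaged 7.59 at 10 h against 6.57 at 0 h, and PLXND1, a semaphorin receptor, 6.32 at 10 h against 5.71 at 0 h. HEMGN, a nuclear protein of blood progenitors, averaged 6.12 at 10 h and CRISPLD1 7.07. Their 0 h means of 4.47 and 4.72 lay within the negative controls, so both passed the filter on level through the treated arrays.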

How the data were processed

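The authors deposited log2 values, 1 per probe set and array, made with RMA per the submitters' processing notes (version not given in the sources used here). Of 54675 probe sets, 62 array controls were left out. Groups came from the time in each title, and symbols from GEO's platform annotation of the probe sets. No pair of arrays shared over 0.269% of values. The remaining 54613 entered a limma fit (version 3.58.1, R 4.3.3) of all 8 arrays with a mean per time, eBayes, 5 residual degrees of freedom and no filter. Calls are at a two-sided Benjamini-Hochberg adjusted p below 0.05 over all probe sets, and intervals are 95%. The fit was tested on simulated data. Each gene is led by its brightest probe set over 8 arrays, a choice that favours probe sets that rise. The pairwise test was planned for 9 partners and run for 8, because HSPA8 has no probe set of its own. The 8 arrays limit the precision.

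The members, the 2 lists of other genes (57 and 33 genes), the markers, the alternatives and the rule for named genes were chosen with earlier results of these data known. That rule names each member, called or else top-ranked genes of the lists, NR3C1 and the 5 profiles most like FKBP5. Alternatives were another choice or averaging of probe sets, a filter on dim probe sets, median centring, quantile normalization, trended robust variances, array weights, the compared times alone, blocks, and leaving out arrays.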

Additional observations from a re-analysis of the deposited data

How the results depend on the processing

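Between 10 h and 0 h the count of 3 called chaperone probe sets became 1 gene, FKBP5, with 1 probe set per gene or with averaged probe sets, since both keep 1 value per gene, and was 3 whichever array was left out. At 10 h against 2 h it was 1 under those 2 settings, 0 without the 3 arrays with the lowest medians, and 0 to 3 when single arrays were left out. At 2 h against 0 h it was 0 under all 19 alternatives. The other 8 genes had no call under any alternative in any comparison, and 122 of their 1164 alternative values differed in sign from the reported one, both uncalled. Of the 159 alternative values of FKBP5, 11 lost a call, all at 10 h against 2 h, and none changed sign. Over all probe sets, 137 were called at 10 h against 0 h, with 34 to 215 over the alternatives, 59 at 10 h against 2 h, with 1 to 92, and 5 at 2 h, with 1 to 14.

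Whether replicate numbers pair the arrays was not settled. Deviations of same-numbered arrays from the mean of their time correlated between −0.279 and 0.280. Of the 8 arrays, 2 correlated best with their own number. With 2 or 3 arrays a time these deviations depend on each other, so they cannot exclude a pairing. With a replicate block the counts of chaperone probe sets were 0 at 2 h, 3 at 10 h against 0 h and 3 at 10 h against 2 h. The exact permutation test of FKBP5 against each partner passed for 7 to 8 partners when single arrays were left out. When times were permuted within replicate numbers it passed for 7 of 8, with STIP1 at an adjusted p of 0.0556. That scheme had 72 assignments, and the smallest unadjusted p it gave was 0.0278. Under that block the difference between HSP90AA1 and HSP90AB1 was −0.18 at 10 h, and the exact permutation test over the times gave p = 0.306. Without the 3 arrays with the lowest medians the gains of FKBP5 at 10 h ran from 1.71 to 2.46 and 0 of 8 passed (exact permutation p from 0.0667 to 0.2, where 0.0667 is the smallest that 5 arrays in these groups allow). The signal of 2 FKBP4 probe sets lay within the negative controls, which limits what they can show.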

Other observations

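Single arrays were often the lowest of the 8 on probe sets of the chaperone genes, an observation made after the values were seen. Of the 11 probe sets outside FKBP5 whose names end in _s_at, 0 h replicate 3 was the lowest of 8 arrays on 5 (45.5%), while it was the lowest on 19.7% of all 7911 such probe sets above the negative controls. On the 11 with another ending it was the lowest on 1. Over all 22 it was the lowest on 6 (27.3%), beside 14.1% of all 28622 probe sets above the negative controls. Array 10 h replicate 1 was the lowest on 10 of the 22 probe sets outside FKBP5 (45.5%), beside 24.2% of all 28622 probe sets above the negative controls. These 10 include FKBP4 200895_s_at and 200894_s_at, on which both 10 h arrays were below the rest. The 10 also include FKBP4 1560305_x_at. It and 1560303_at are among the 22 but lay within the negative controls, so the shares of the 22 and of the 28622 cover unlike sets. Probe sets of some genes ordered the arrays of a time differently, for example in BAG1, HSP90AA1 and STIP1. For BAG1, 0 h replicate 3 was the lowest array at 8.38 on 211475_s_at, whereas on 229720_at it was 6.95, close to the highest at 7.04.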
